A study of Homo sapiens with 12 samples.

Results

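CIITA, CD74, HLA-DRA, HLA-DPA1, HLA-DMA and HLA-DMB, genes of the MHC class II pathway, were followed in the cell lines MDA-MB-231 and MDA-MB-468, each with and without knockout (KO) of SMARCA4. They are the rows with these symbols, 6 of the 11529 genes in the table, and they were chosen because their levels were already known to differ between SMARCA4 KO and control MDA-MB-231 cells. Their values in MDA-MB-231 cells are therefore given as a description, without a test, whereas their values in SMARCA4 KO against control MDA-MB-468 cells were tested.

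MHC class II molecules present peptides from endosomes to CD4+ T cells, and dendritic cells, B cells and macrophages make them without stimulation. An alpha chain such as HLA-DRA or HLA-DPA1 pairs with a beta chain, the invariant chain CD74 escorts the pair to the endosome and blocks its groove, and HLA-DM, made of HLA-DMA and HLA-DMB, exchanges the remaining CD74 fragment for a peptide. CIITA, the class II transactivator, does not bind DNA itself but is recruited to the factors RFX, CREB and NF-Y at the promoters of these genes, and IFN-gamma switches CIITA on in many cells, tumour cells included.

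MDA-MB-231 and MDA-MB-468 are cell lines from triple-negative breast cancers, and SMARCA4 (BRG1) is an ATPase of the SWI/SNF chromatin remodeling complex. Each cell line had 3 control and 3 SMARCA4 KO samples, 12 in all, and poly(A) RNA was sequenced. The controls were cells of wild type genotype. The KO cells had received a lentivirus with Cas9 and 1 guide RNA against an exon of SMARCA4 and were selected with puromycin as a pool rather than as a clone, and the labels name no other treatment of either group. The study also used cells with a non-targeting control vector, but whether the sequenced controls, labelled wild type, had received it is not given in the sources used here, and the part of transduction and selection in the differences was not tested. Each sample has a number after the letter p in its description, 10 to 12 in both groups of MDA-MB-231, 26 to 28 in MDA-MB-468 controls and 25 to 27 in MDA-MB-468 KO samples. The meaning of this number is not given, and nothing says outright that replicates were separate cultures, so that p-values measure the spread between these samples, which may be technical.

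SMARCA4 itself followed the labels, with an FPKM between 67.0 and 71.5 in MDA-MB-231 controls against 21.0 to 23.9 in KO cells, and between 96.9 and 101 in MDA-MB-468 controls against 39.7 to 47.7 in KO cells. The FPKM is the number of fragments per kilobase of transcript, scaled to the sample's mapped fragments. Values were deposited as log2(FPKM + 1), log2 fold changes (log2FC) are differences on that scale, and they understate the change of genes with a low FPKM. A sample had a value above 0 for 11293 to 11362 genes, and read depth is unknown.

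Because the class II factors act at promoters, upstream sequence was taken from RefSeq (table build GRCh38.p14) and located in GRCh37, in which each window had 1 exact match. Windows for CD74, HLA-DMA, HLA-DMB and HLA-DPA1 were read, and those of HLA-DRA and CIITA are not shown. The stretches below run 5′ to 3′ on the minus strand from 150 to 16 bases before the RefSeq start of the gene, at chr5:149792489-149792623 for CD74, chr6:32920890-32921024 for HLA-DMA and chr6:32908821-32908955 for HLA-DMB. Capitals mark matches on either strand to the Y box (ATTGG, bound by NF-Y), the core of the X1 box (the longest of the 3, bound by RFX) or the core of the X2 box (TGACG, bound by CREB).
CD74: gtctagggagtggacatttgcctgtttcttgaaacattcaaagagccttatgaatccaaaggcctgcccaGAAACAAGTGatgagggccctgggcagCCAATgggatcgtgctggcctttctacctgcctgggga
HLA-DMA: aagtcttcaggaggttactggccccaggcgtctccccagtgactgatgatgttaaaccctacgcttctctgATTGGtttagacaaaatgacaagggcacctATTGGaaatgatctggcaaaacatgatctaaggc
HLA-DMB: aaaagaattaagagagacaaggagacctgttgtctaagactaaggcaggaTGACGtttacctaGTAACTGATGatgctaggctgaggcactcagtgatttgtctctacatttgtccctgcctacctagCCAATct
HLA-DMB held matches to the X2 core, the X1 core and the Y box, starting at -100, -87 and -22 from the gene start. Its X2 match thus lay farther from the gene than its X1 match, and whether it stands in the place of an X2 box was not tested. CD74 held an X1 core match and a Y box match, and HLA-DMA 2 Y box matches. No match overlapped another. The printed stretches overlap annotated exons in part, by 44 bases for CD74, which include its Y box, and by 10 bases for HLA-DMA, whose longer transcripts start farther upstream so that the stretch lies inside the annotated span of the gene. HLA-DPA1 had 2 windows, and each held 1 TGACG match and no other match. They are not printed because exons cover most of the stretch (135 and 108 bases), those of HLA-DPB1 included in the first. These motifs are short. ATTGG occurs in 34.6% of the 35116 promoter windows of the same table, TGACG in 24.6% and the X1 core in 10.8%. The interferon-stimulated response element bound by interferon-regulatory factors had no match in the windows of these 4 genes, and occurs in 3.57% of all windows. A match describes these letters and is no measure of binding.

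In the annotation of GRCh37, HLA-DRA (chr6:32407655-32412823, plus strand), HLA-DMB (chr6:32902406-32908805), HLA-DMA (chr6:32916390-32936871) and HLA-DPA1 (chr6:33032346-33048552, all 3 on the minus strand) lie in the MHC. CD74 is on chromosome 5 (chr5:149781200-149792532, minus strand) and CIITA on chromosome 16 (chr16:10960079-11036878, plus strand). The 6 genes lie on 3 chromosomes.

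CIITA was present at low level in control MDA-MB-231 cells and was higher in KO cells. Its FPKM was 9.00, 11.2 and 7.60 in controls 1 to 3 and 12.7, 13.7 and 14.4 in the KO samples. Every KO sample lay above every control, although the highest control came close to the lowest KO sample. The mean FPKM was 9.27 ± 1.83 (SD, n = 3) against 13.6 ± 0.873 (n = 3), a log2FC of 0.52 (SE 0.13) and a 1.46-fold ratio of means. The annotated end of CIITA overlaps DEXI on the opposite strand, and the strand setting of the counting is not given in the sources used here. DEXI had a log2FC of -0.17 (SE 0.08).

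The alpha chains had the largest differences. HLA-DRA, the chain that pairs with every HLA-DRB, had an FPKM of 7.15, 20.0 and 25.1 in the controls and of 64.6, 68.0 and 62.4 in the KO samples. The KO samples lay close together and far above the controls, of which the first was much lower than the others. The log2FC was 2.00 (SE 0.43), with a mean FPKM of 17.4 ± 9.26 against 65.0 ± 2.81. HLA-DPA1, the alpha chain of HLA-DP, had an FPKM of 6.34, 13.6 and 16.3 in the controls and 63.9, 71.2 and 57.0 in the KO samples. Again no sample of one group reached into the other, and control 1 was lowest. Here the log2FC was 2.40 (SE 0.33) and the ratio of means 5.30-fold.

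The invariant chain and HLA-DM differed less. CD74 had an FPKM of 248.6, 392.7 and 435.7 in the controls and of 642.1, 697.7 and 610.1 in the KO samples, a log2FC of 0.89 (SE 0.22). It was the most abundant of the 6 genes in both groups, and 98.0% of all genes had a lower mean log2 value in the controls and 98.8% in the KO cells. HLA-DMA had an FPKM of 12.9, 27.1 and 26.7 in the controls and of 44.1, 42.5 and 34.4 in KO cells, a log2FC of 0.90 (SE 0.30). HLA-DMB, the other chain of HLA-DM, had an FPKM of 3.68, 6.48 and 7.54 against 11.2, 13.5 and 10.02, a log2FC of 0.90 (SE 0.24). In each of these genes the controls and KO samples did not overlap.

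In all, the 3 KO samples lay above the 3 controls in 6 of the 6 genes, where 16.6% of the 11529 genes did so. A DEG here has a limma adjusted p under 0.05 over all genes and an absolute log2FC over 0.5. HLA-DRA and HLA-DPA1, 2 of the 6, were higher DEGs in MDA-MB-231 cells, as were 2.39% of all genes, and 3.7% were DEGs in either direction. As the genes were picked from this contrast, these counts describe the choice. Genes of the HLA family share long stretches of sequence and vary between people, so that reads counted against a single reference haplotype can be lost or assigned to a relative, and levels of HLA-DRA, HLA-DPA1, HLA-DMA and HLA-DMB are uncertain to that extent. In bulk RNA, more cells with these transcripts and more RNA per cell cannot be told apart.

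The order of the levels differed between the groups. Among MDA-MB-231 controls the mean FPKM ran in the order CD74 (359.0 ± 98.0), HLA-DMA (22.2 ± 8.11), HLA-DRA, HLA-DPA1 (12.1 ± 5.16), CIITA and HLA-DMB (5.90 ± 1.99), and apart from CD74 and the step from CIITA to HLA-DMB the ranges of neighbours in this order overlapped. Among KO samples the order was CD74 (650.0 ± 44.4), HLA-DRA, HLA-DPA1 (64.0 ± 7.10), HLA-DMA (40.3 ± 5.17), CIITA and HLA-DMB (11.6 ± 1.79). HLA-DRA overlapped with HLA-DPA1 and CIITA with HLA-DMB, while HLA-DMA stood below both alpha chains in every comparison of samples. HLA-DRA went from above 47.6% to above 85.4% of all genes and HLA-DPA1 from above 37.8% to above 85.1%.

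Ratios within a sample show the same unequal shift and are free of any scaling between samples. HLA-DRA was 2.88% to 5.77% of CD74 in the controls, with a mean of 4.58 ± 1.51, and 9.75% to 10.2% in KO samples, with a mean of 10.01 ± 0.247. HLA-DPA1 was 2.55% to 3.75% of CD74 in controls and 9.34% to 10.2% in KO samples. By contrast, HLA-DMA was 6.07 ± 0.863% of CD74 in controls and 6.2 ± 0.616% in KO samples, and HLA-DMB 1.62 ± 0.128% and 1.78 ± 0.151%, differences within the spread of the samples. CIITA ranged from 1.74% to 3.62% of CD74 in controls and from 1.96% to 2.36% in KO samples, so that its ranges overlapped as well. The ratio of HLA-DMA to HLA-DMB, partners in HLA-DM, was 3.74 ± 0.381 in controls and 3.50 ± 0.397 in KO samples. The ratio of HLA-DRA to HLA-DPA1 was 1.38 ± 0.221 in controls and 1.02 ± 0.0706 in KO samples, and its ranges did not overlap.

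Control replicate 1 of MDA-MB-231 stood apart in these genes. It lay more than 0.5 below both other controls on the log2 scale in 5 of the 6 genes, where 1.61% of all genes did. From the mean of the other controls it differed by -1.52 for HLA-DRA, -1.11 for HLA-DPA1, -1.01 for HLA-DMA, -0.77 for HLA-DMB and -0.73 for CD74, whereas CIITA differed by -0.04 and was lowest in replicate 3. Of the lists described below, 1 of 6 carcinoma markers, 1 of 19 endosomal genes, 1 of 43 interferon-stimulated genes and 0 genes of the other lists were as low in this sample. The median deviation was -0.48 for the carcinoma markers, -0.19 for the interferon-stimulated genes, -0.14 for the endosomal genes and -0.02 for all genes. The SD of each of the 6 genes in controls exceeded that of 91.2% to 99.7% of all genes, against 30.6% to 89.5% in the KO samples.

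Leaving out control 1 could not change the direction, as every KO sample lay above every control, but it could change the size. The log2FC was then 1.49 (SE 0.11) for HLA-DRA, 2.03 (SE 0.13) for HLA-DPA1, 0.65 (SE 0.08) for CD74, 0.56 (SE 0.12) for HLA-DMA, 0.65 (SE 0.14) for HLA-DMB and 0.51 (SE 0.16) for CIITA. HLA-DMA thus moved by over 1.5 times and the others by less. The DEG call of HLA-DPA1 was lost without KO replicate 1 or 2, and that of HLA-DRA without any 1 of control 2, control 3 or the 3 KO replicates.

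MDA-MB-468 controls had very little of these transcripts. HLA-DRA was listed at 0 in all 6 MDA-MB-468 samples, controls and KO. CD74 had an FPKM of 0.19, 0.04 and 0.04 in the controls, against 248.6 to 435.7 in MDA-MB-231 controls, a log2 difference between the control lines of -8.33 (SE 0.20) for MDA-MB-468 minus MDA-MB-231. HLA-DMA was the highest, at 3.32, 1.38 and 1.32, which was 9.03% of its mean FPKM in MDA-MB-231 controls. For the other genes this share was 3.52% for CIITA, 2.60% for HLA-DMB and 1.77% for HLA-DPA1. All 6 genes were lower DEGs between the control lines, as were 31.4% of all genes, and the MDA-MB-231 controls of this comparison are those of the KO comparison above. The table keeps genes with a mean and an SD of at least 1 FPKM, so that genes this low in MDA-MB-468 cells are in it because of their level in MDA-MB-231 cells. Alleles differ between the lines, and their alignment to the reference was not tested as a part of this difference.

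KO of SMARCA4 in MDA-MB-468 cells did not bring the genes near their MDA-MB-231 level, and none of them passed the test. CIITA had an FPKM of 0.31, 0.19 and 0.48 in controls and 0.69, 0.37 and 0.55 in KO samples, with overlapping groups and a log2FC of 0.21 (SE 0.11, limma adjusted p = 0.299, 95% interval -0.07 to 0.49). CD74 had 0.58, 0.25 and 0.10 in KO samples, which overlapped with the controls, and a log2FC of 0.25 (SE 0.14, limma adjusted p = 0.330, 95% interval -0.11 to 0.61). HLA-DMA had 2.01, 1.11 and 1.16 in KO samples and a log2FC of -0.27 (SE 0.28, limma adjusted p = 0.599, 95% interval -0.97 to 0.44). Between samples of the same replicate number, CIITA and CD74 were higher in KO and HLA-DMA was lower in KO in 3 of 3 pairs. HLA-DPA1 and HLA-DMB did not go 1 way in every pair, and HLA-DRA was at 0. The share of all genes that go 1 way in every pair was not counted, and samples of the same replicate number differ in p number in this line. With the replicate number as block, limma gave an adjusted p of 0.191 for CIITA (SE 0.08), 0.166 for CD74 (SE 0.08) and 0.212 for HLA-DMA (SE 0.10), which left each without a call. On the linear scale the ratio of mean FPKM, KO over control, was 1.64 for CIITA and 3.44 for CD74 in MDA-MB-468 cells, both from levels under 1 FPKM, and 0.711 for HLA-DMA.

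The chains close to 0 showed as little. HLA-DPA1 had an FPKM of 0.21, 0.19 and 0.24 in controls and of 0.31, 0.04 and 0.04 in KO samples, a log2FC of -0.11 (SE 0.10, limma adjusted p = 0.537, 95% interval -0.36 to 0.14). HLA-DMB had 0.05, 0.27 and 0.14 in controls and 0.05, 0.09 and 0.14 in KO samples, a log2FC of -0.07 (SE 0.08, limma adjusted p = 0.613, 95% interval -0.28 to 0.13). For both genes the groups overlapped. HLA-DRA, at 0 throughout, had nothing to test. With limma, 0 of the other 5 genes were DEGs and 0 had an unadjusted p under 0.05, where 2.14% of all genes were DEGs and 25.1% had such a p. As 4 of the 5 lay under 1 FPKM, this count says little. KO samples did not lie wholly above or wholly below the controls for any of the 6, where 17.5% of all genes lay above and 13.5% below.

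The difference of the KO effects, MDA-MB-468 minus MDA-MB-231, was -2.51 (SE 0.34) for HLA-DPA1, -2.002 (SE 0.43) for HLA-DRA, -1.16 (SE 0.41) for HLA-DMA, -0.98 (SE 0.26) for HLA-DMB, -0.64 (SE 0.26) for CD74 and -0.31 (SE 0.18) for CIITA. It holds the contrast from which the genes were picked and was therefore not tested for them, and 14.7% of all genes passed the test of this difference. With a pseudocount of 0.1 in place of 1, which weighs differences near 0 FPKM more, it was 0.13 for CD74 and 0.04 for CIITA, so that its sign for these genes depends on the scale.

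Other genes of the pathway were taken from lists. Of the 11 listed class II chains and the 5 listed chaperones, the table held HLA-DRA, HLA-DPA1, CD74, HLA-DMA and HLA-DMB, and the others, among them the beta chains, were not analysed here. The list of factors of the class II promoter complex and cofactors of CIITA also held repressors such as HDAC1 and PRDM1. Of its 20 measured genes other than CIITA, 0 were DEGs in MDA-MB-231 cells with limma, with 3 at an unadjusted p under 0.05. Their median log2FC, over activators and repressors together, was 0.04 against -0.01 for all genes. RFX5, a subunit of RFX, had a log2FC of -0.01 (SE 0.06, limma adjusted p = 0.927), its partner RFXANK one of -0.02 (SE 0.09) and CREB1 one of -0.01 (SE 0.10). For the counts at an unadjusted p under 0.05 in these lists, the share among all genes was 31.2% in MDA-MB-231 and 25.1% in MDA-MB-468 cells. The NF-Y subunits NFYA, NFYB and NFYC lay between -0.15 and 0.06. In MDA-MB-468 cells 0 of the 20 were DEGs with limma, and 4 had an unadjusted p under 0.05.

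The genes that carry or restrain the IFN-gamma signal to CIITA did not pass either. Of 14 measured, 0 were DEGs in MDA-MB-231 cells with limma, with 5 at an unadjusted p under 0.05. The median log2FC was -0.10, taken over carriers of the signal and inhibitors such as SOCS1 and SOCS3 together. IRF1, a transcription factor that acts at the CIITA promoter, had an FPKM of 33.6, 37.3 and 36.9 in controls and 44.7, 43.2 and 39.6 in KO samples, which lay above the controls (log2FC 0.24, SE 0.07, limma adjusted p = 0.0800). The receptor chain IFNGR1 had a limma adjusted p of 0.0441 with a log2FC of 0.43 (SE 0.09), under the fold limit. In MDA-MB-468 cells 0 of 14 were DEGs with limma, with 4 at an unadjusted p under 0.05.

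Endosomal proteases and related genes, which make the peptides and cut CD74, included 2 higher DEGs of 19 measured in MDA-MB-231 cells. CTSV, cathepsin V, rose from an FPKM of 1.40, 1.97 and 2.07 to 5.64, 4.91 and 4.83 (log2FC 1.13, SE 0.11, limma adjusted p = 0.00945). CTSF, cathepsin F, which can also process CD74, rose from 16.6, 18.3 and 21.2 to 31.3, 29.2 and 24.4 (log2FC 0.57, SE 0.12, limma adjusted p = 0.0442). The groups of both cathepsins did not overlap. The call of CTSF was lost on leaving out any 1 of the 6 samples and that of CTSV without KO replicate 2. With the replicate number as block neither call held, and no gene of any list named here was a DEG in MDA-MB-231 cells. Of the 19 genes, 11 had an estimate above 0 and 8 below 0 in MDA-MB-231 cells. CTSS and CTSC, also cathepsins and named here because of their values, were lower in KO cells but no DEGs. Their mean FPKM went from 18.3 to 9.59 and from 107.2 to 65.7. The median of the list was 0.09, and in MDA-MB-468 cells 0 of 19 were DEGs with limma, with 9 at an unadjusted p under 0.05. Under the replicate block CST6, a cystatin that inhibits cathepsins, had a log2FC of 0.61 and an adjusted p of 0.0474 there, against 0.103 without it.

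Among 20 measured genes of MHC class I and its peptide supply, 1 was a higher DEG in MDA-MB-231 cells, HLA-B, a class I heavy chain. It rose from an FPKM of 151.8, 149.1 and 180.5 to 247.7, 257.3 and 217.7 (log2FC 0.59, SE 0.10, limma adjusted p = 0.0278), a call lost without control 1, control 2, KO 1 or KO 2, and shared sequence among class I genes makes it uncertain as well. In this list 18 estimates lay above 0 and 2 below 0, with a median log2FC of 0.07. In MDA-MB-468 cells 0 of 20 were DEGs with limma, and 6 had an unadjusted p under 0.05.

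Of 43 measured interferon-stimulated genes, 3 were higher DEGs in MDA-MB-231 cells, IFI27, OAS1 and IFITM3, and 0 were lower DEGs, where 2.39% of all genes were higher DEGs. The estimate was above 0 for 29 and below 0 for 14, with a median log2FC of 0.18. OAS1, which makes the activator of RNase L, rose from an FPKM of 0.77, 0.93 and 1.11 to 3.16, 2.74 and 2.38 (log2FC 0.96, SE 0.10, limma adjusted p = 0.00999, lost without KO 2). IFI27 rose from 47.9, 62.6 and 73.4 to 168.8, 129.5 and 111.6 (log2FC 1.14, SE 0.21, limma adjusted p = 0.0314), and IFITM3, which restricts virus entry, had a log2FC of 0.59 (SE 0.13, limma adjusted p = 0.0464). The calls of IFI27 and IFITM3 were lost on leaving out any 1 sample. In MDA-MB-468 cells GBP4, a guanylate-binding protein, was the 1 DEG of the list and fell from 1.0, 0.71 and 0.66 to 0.12, 0.19 and 0.13 (log2FC -0.64, SE 0.08, limma adjusted p = 0.0270). Its adjusted p was 0.0553, past the limit, in the fit that blocked on replicate. In that fit GBP2, another guanylate-binding protein, had a log2FC of -1.497 and an adjusted p of 0.0487, within the limits, against 0.0579 without the block.

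Costimulation genes, which provide the further signal a T cell needs, included 1 DEG of 8 in MDA-MB-231 and 2 in MDA-MB-468 cells. TNFSF9 (4-1BB ligand) rose in both, from an FPKM of 3.17, 2.5 and 2.51 to 4.49, 5.82 and 5.02 in MDA-MB-231 cells (log2FC 0.71, SE 0.11, limma adjusted p = 0.0215, lost on leaving out any 1 sample but control 1) and from 4.64, 5.79 and 6.63 to 15.8, 21.95 and 24.2 in MDA-MB-468 cells (log2FC 1.69, SE 0.19, limma adjusted p = 0.0200). ICAM1, an adhesion molecule of the contact with T cells, rose in MDA-MB-468 cells (log2FC 0.62, SE 0.09, limma adjusted p = 0.0354), with an adjusted p of 0.0741 under the replicate block. The MDA-MB-468 calls of TNFSF9, ICAM1 and GBP4 were all lost without any 1 of the 3 controls, KO 2 or KO 3.

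Genes next to the 6 were looked up as well. Within 250 kb the table held 24 other genes, a window set after the values were seen, and their median log2FC in MDA-MB-231 cells was 0.02. None was a higher DEG and 1 was a lower DEG with limma, and 8 had an unadjusted p under 0.05. TAP1, TAP2, PSMB8 and PSMB9, which lie between HLA-DMB and HLA-DRA in the class II region and supply peptides to class I, had log2FC values of 0.04, -0.45, 0.06 and 0.04. BRD2, whose annotated span overlaps that of HLA-DMA, had a log2FC of -0.06, and none of these genes passed. How reads in such an overlap were counted is not given in the sources used here. The lower DEG was GPSM3, a regulator of G protein signalling near HLA-DRA that is named here because of its value, with a log2FC of -1.07 (limma adjusted p = 0.00945, lost without KO 2). Next to CD74, RPS14 and TCOF1 had -0.05 and -0.02. In MDA-MB-468 cells 0 of the 24 were DEGs with limma, and 6 had an unadjusted p under 0.05.

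Genes with the most similar profile were sought over the 12 samples by the root mean square difference (RMS) between profiles centred on their own mean. Closest to the mean profile of the 6 genes was COL6A2, a chain of collagen VI, with an RMS of 0.24 on the log2 scale, followed by EEF1A2, a translation elongation factor (0.29), GNG11, a G protein subunit (0.32), SPINK4 (0.33), ADAMTS15, a secreted metalloprotease (0.33), SAA2, an acute phase protein (0.33), KIAA1199, a hyaluronan-binding protein (0.36), and RARRES2, which encodes chemerin (0.37). HLA-DRA, HLA-DPA1, HLA-DMA, HLA-DMB and CIITA were themselves at 0.37, 0.41, 0.62, 0.83 and 0.86 from that mean. CD74, because of its large range, was at 2.01. All but HLA-DRA thus lay farther from the mean profile than every gene named above. Closest to CIITA were FAT4 (0.18), TOX2 (0.18), MAP1LC3A (0.18) and MPP1 (0.19). All 12 of these nearest genes had a lower mean log2 value in the controls of MDA-MB-468 than in those of MDA-MB-231. This follows from how they were picked, as the profiles they were compared with have the same difference. The distances are given without a test.

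Cells of the immune system also make class II molecules. Of 23 listed leukocyte markers the table held CD14, LAPTM5 and CORO1A, and others, such as the defining PTPRC and CSF1R, were not analysed here. The summed FPKM of the 3 was 37.6 to 40.7 in MDA-MB-231 controls and 20.1 to 27.4 in KO samples. The markers did not go 1 way, as 2 had a log2FC above 0 and 1 below, with a median of 0.44. The summed FPKM of the 6 genes was 287.7 to 519.0 in controls and 788.4 to 906.6 in KO samples. LAPTM5, a lysosomal protein of leukocytes, fell (log2FC -0.92, SE 0.11, limma adjusted p = 0.0121, lost without KO 2), and CD14, a co-receptor for bacterial lipopolysaccharide, rose from an FPKM of 0.79, 1.39 and 1.31 to 4.90, 4.39 and 2.65 (limma adjusted p = 0.0294, lost without any 1 sample but KO 3). CORO1A had a log2FC of 0.44 and did not pass. The carcinoma markers KRT8 and EPCAM had a mean FPKM of 378 and 13.97 in MDA-MB-231 controls, 0 of 6 carcinoma markers were DEGs with limma, and 1 had an unadjusted p under 0.05. The part of these transcripts in the class II result was not tested.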

How the data were processed

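RNA was measured in 12 samples of 2 cell lines, 3 control and 3 SMARCA4 KO samples of each, grouped by genotype from the labels. Libraries were made with the TruSeq Stranded mRNA kit. The authors used Trimmomatic for trimming, STAR for alignment to hg19 and RSEM for FPKM per gene, and removed genes with a low mean or SD of FPKM. They deposited log2(FPKM + 1) values of 11529 genes, so a difference on this log2 scale is compressed at low FPKM. The smallest mean over samples was 1.07 FPKM and the smallest SD 1.00. FPKM was recovered by reversing the transformation. Depth is unknown.

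With limma 3.58.1 in R 4.3.3 (lmFit, eBayes without a trend), KO was compared with control within each cell line, the control lines with each other, and the KO effects by an interaction contrast. A DEG needed an adjusted p (Benjamini-Hochberg, over all 11529 genes) under 0.05 and an absolute log2FC over 0.5 (interaction, adjusted p only). The fit was tested on simulated data. The 6 genes and the 10 lists were chosen with earlier results of these data known. Named were the 6 genes, SMARCA4, any measured gene of the promoter complex and IFN-gamma lists, up to 4 DEGs in each direction of the other lists, and the nearest profiles. Replicate numbers come from the titles. Deviations from the group means of same-numbered samples correlated at 0.254, 0.161 and 0.119 in MDA-MB-468 cells, where these samples differ in p number. Blocked values are given there beside those of the unblocked fit. In MDA-MB-231 cells, where same-numbered samples share a p number, the correlations were -0.0543, 0.0741 and -0.115. For that line only counts of the blocked fit are given. The symbol of 18 rows is a date. They stayed in the tests. Alternatives were a pseudocount of 0.1, a filter on a mean log2 value over 1, other scalings, 1 fit of all samples, the replicate block, leaving out each sample and, added after seeing the data, the p number as block in MDA-MB-468 cells. Some items are not reported here.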

Additional observations from a re-analysis of the deposited data

Results flagged for a closer look

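For the listed genes that were DEGs in a cell line, the KO effects of the lines were set against each other with limma's interaction contrast over all genes, and 7 had an adjusted p under 0.05. As these genes were first picked as DEGs of 1 line from the same samples, the differences are given as values and the p-values are no independent test. Taken as MDA-MB-468 minus MDA-MB-231, the difference came to -1.04 for CTSV, -1.19 for IFI27, -1.11 for OAS1, -0.93 for GBP4 and -1.75 for CD14. It was 0.97 for TNFSF9, which rose in both lines, and 0.90 for LAPTM5. IFI27 and LAPTM5 were near 0 FPKM in every MDA-MB-468 sample, with at most 0.42 and 0.05, and are in the table through their MDA-MB-231 levels. CD14 in MDA-MB-468 cells was at 46.1 to 52.9 FPKM in controls and 20.8 to 63.2 in KO samples.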

How the results depend on the processing

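Each class II gene was higher in MDA-MB-231 KO cells under all alternatives run. As every KO sample lay above every control, only the other scalings could have changed this. In MDA-MB-468 cells 0 of the 6 were DEGs under any alternative. The 6 were picked from the MDA-MB-231 contrast, so counts for them in that line describe the choice and are no test. In MDA-MB-231 cells the DEGs among the 6, 2 as reported, numbered 1 with a pseudocount of 0.1, 5 with a mean log2 value over 1, 5 with 1 fit of all samples and 0 to 3 on leaving out a sample. Listed other genes, 7 as reported, gave 11 with the filter, 11 with 75th percentile scaling, 12 with 1 fit and 0 to 5 on leaving out a sample, and all genes, 426 as reported, 99 to 311. With the replicate block MDA-MB-231 gave 0, 0 and 0 for these counts, with 6, 45 and 3126 at an unadjusted p under 0.05. Same-numbered samples of this line share a p number, and whether they form pairs is not given. In MDA-MB-468 cells the block gave 0 of the 6, with 1 at an unadjusted p under 0.05, 3 listed genes and 241 genes in all, and changed no call of a listed gene but those of GBP4, ICAM1, GBP2 and CST6. With the p number as block, which pairs only control 1 with KO 2 and control 2 with KO 3 (correlations of deviations -0.232 and 0.029), limma gave 0 genes in all, 0 of the 6 and 0 listed genes, with 2477, 0 and 35 at an unadjusted p under 0.05. In MDA-MB-468 cells all genes, 247 as reported, gave 424 with the filter, 537 with 1 fit and 0 to 474 on leaving out a sample (0 without control 2, with 2288 at an unadjusted p under 0.05, or without KO 2, with 2023), and listed genes, 3 as reported, 7 with 1 fit and 0 to 7. For the interaction, leaving out a sample gave 924 to 1897 genes (1699 as reported) and 16 to 27 listed genes (22 as reported). Scaling to the 75th percentile moved the higher and lower DEGs from 275 and 151 to 343 and 119 in MDA-MB-231 cells and, for the interaction, from 912 and 787 to 671 and 941. The cause was not tested. Levels in MDA-MB-468 cells lie near 0 FPKM, where the unknown depth limits what a difference can show.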
